A study of Mus musculus with 16 samples.

Results

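The transferrin receptor gene Tfrc and 7 further genes of cellular iron handling (Fth1, Slc11a2, Slc40a1, Ireb2, Aco1, Steap1 and Steap3) were examined in mouse tibialis anterior, a fast muscle of the lower leg. They were found as the non-control array probes whose RefSeq accession maps to one of the 8 symbols. All 8 genes had a probe, 12 probes in all out of 41174, and all 8 passed the filter on dim probes among 24826 genes tested. The 8 genes were selected on the processed signals of these same arrays over the diet groups, Tfrc being among the genes already seen to be higher under restriction. Their levels and differences are therefore a description and carry no test.

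The 16 arrays fall into 4 diet groups of 4. Dams were fed normally or received 50% less food during week 3 of gestation, and their offspring ate ad libitum (AL) or were calorie restricted (CR). In the group names (control AL and CR, undernourished AL and CR) the first word refers to the dam and the letters to the offspring's diet. Each group held 8 mice, and each array was hybridised with RNA pooled from 2 of them; the labels used here give no strain, sex, age or litter, nor the degree or length of the offspring's restriction. Where pools of a group share litters, the spread of the arrays does not fully hold the spread between dams, so p-values for maternal diet can be too small.

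Cells take up most of their iron as transferrin, which binds the transferrin receptor at the cell surface and is carried into endosomes. There a ferrireductase of the STEAP family reduces the iron and DMT1, the product of Slc11a2, moves it into the cytosol. Iron that is not used is stored in ferritin, whose heavy subunit is encoded by Fth1, or leaves through ferroportin, encoded by Slc40a1. The iron regulatory proteins IRP1 (Aco1) and IRP2 (Ireb2) bind iron-responsive elements when iron is scarce, which stabilises Tfrc mRNA and blocks translation of ferritin mRNA. Muscle needs iron for myoglobin and for the haem and iron-sulphur proteins of its mitochondria.

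The sequence at the transcription start of Tfrc is shown because Tfrc had the largest CR-AL differences of the 8 genes and because hypoxia-inducible factor is known to act on this gene. RefSeq promoter windows (build GRCm38.p6), each of 300 bases, were at hand for 6 of the 8 genes, 11 windows in all. The stretch below is chr16:32608646-32608898 on the plus strand, 250 bases before the annotated start and the first bases after it. Capitals mark the letters ACGTG, the core of a hypoxia response element.
Tfrc: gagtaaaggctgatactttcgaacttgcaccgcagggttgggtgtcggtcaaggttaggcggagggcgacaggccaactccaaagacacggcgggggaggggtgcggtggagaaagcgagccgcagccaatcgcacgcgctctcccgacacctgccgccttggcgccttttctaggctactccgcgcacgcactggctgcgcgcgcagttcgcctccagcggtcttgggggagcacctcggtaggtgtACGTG

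The letters ACGTG, searched on both strands, were in 2 of the 11 windows. Both belong to Tfrc, overlap and hold the same single match, which spans the annotated start of the first window. Of 32817 promoter windows of the same length, 19.6% held ACGTG. The E-box CACGTG, which contains ACGTG, was in none of the 11 windows and in 7.15% of all windows. The letters TGANNNNGC of the antioxidant response element were in 2 of the 11, of Steap3 and Aco1, and in 41.3% of all. These are matches of letters in a window and show no binding.

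Levels below are log2 of the spot's processed signal minus the array's 75th percentile of that signal, so that 0 is the brightness of a probe at the 75th percentile. Probes differ in how well they hybridise, so levels are compared between arrays for one gene and never between genes. Differences are log2 differences with their standard error from a limma fit over all 16 arrays (n = 4 arrays per group). All AL arrays were on slides 1 and 2, scanned on one day, and all CR arrays on slides 3 and 4, scanned on another, so offspring diet, slide and scan day cannot be told apart. Each slide held 2 control and 2 undernourished arrays, so maternal diet can be read within a slide.

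The tissue label was checked against marker genes. All 10 muscle markers were well above background on every array, with a median level of 8.72 to 9.28. Brain transcripts were also present on the AL arrays. The median level of 24 brain markers was -2.14 to 1.03 in control AL, -3.35 to -1.16 in undernourished AL, and -6.44 to -5.95 under CR. Of the 24, 20 fell and 1 rose under CR in control offspring, and 16 fell and 2 rose in undernourished offspring. Between 22 and 24 were well above background on control AL arrays, 16 to 22 for undernourished AL, 12 to 14 for control CR and 11 to 16 for undernourished CR. Their summed linear level was 31.8 to 203, 15.4 to 45.9, 26.8 to 38.0 and 28.8 to 30.7 in the same order. The median of 10 skin markers was -0.06 to 1.56 on control AL replicates 1, 2 and 3 and -4.20 to -1.83 on the other 13 arrays. A brain index, the linear form of that brain median set to 1 on the highest array, stood at 1, 0.72, 0.19 and 0.11 for control AL, at 0.22, 0.13, 0.13 and 0.048 for undernourished AL, and at most at 0.0079 under CR. These transcripts move with offspring diet, and their part in the differences below was not tested beyond the alternatives given. Because the arrays hold bulk RNA, fewer cells of a type and less RNA per cell cannot be told apart either.

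Tfrc was higher under CR in both kinds of offspring. Replicates 1 to 4 of control AL had levels of -0.32, 0.03, -0.29 and 0.98, and those of control CR 2.44, 0.83, 1.61 and 1.47. In offspring of undernourished dams it was 0.27, -0.22, -0.50 and -0.37 under AL and 2.10, 1.62, 1.63 and 1.63 under CR. One control AL array, replicate 4, stood above the lowest control CR array, replicate 2, so these groups overlap, while the undernourished AL and CR arrays do not. Tfrc was higher under CR by 1.49 ± 0.33 in control offspring, or 2.80-fold, and by 1.95 ± 0.33 in undernourished offspring, or 3.86-fold. From low to high, the group means were -0.21 ± 0.34 in undernourished AL, 0.10 ± 0.61 in control AL, 1.59 ± 0.66 in control CR, then 1.74 ± 0.24 in undernourished CR (SD, n = 4). Neighbours within one offspring diet lie within each other's spread, while the step from control AL to control CR is larger than either SD.

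Tfrc has 1 probe, printed on 10 spots of each array, and the spots of an array had an SD of 0.037 to 0.116. The difference in control offspring was 0.61 ± 0.49 without the 5 arrays that carried raised skin or liver transcripts, which leaves replicate 4, the highest, as the only control AL array. In undernourished offspring it was 1.89 ± 0.36 without them. With the brain index as a covariate the differences were 1.14 ± 0.44 and 1.86 ± 0.33. Undernourished AL replicate 4, which has the lowest brain index of the AL arrays, had a Tfrc level of -0.37. Control AL replicate 4, with the next lowest index (0.11), had the highest AL level, 0.98. Control AL replicate 1, with the highest index, was at -0.32. CR arrays of slide 3 alone gave 1.53 and 2.07, and those of slide 4 alone 1.44 and 1.83.

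Developing red cells carry much transferrin receptor, so erythroid markers are given beside Tfrc. Of 12 such markers 7 were measured. In control offspring 1 of the 7 was higher under CR, Bpgm, by 0.54 ± 0.20 (limma, adjusted p = 0.048), and in undernourished offspring 0 of 7 passed, with none under an unadjusted p of 0.05 other than Bpgm (unadjusted p = 0.032). Their summed linear level, relative to the 75th percentile, was 93.1 to 233 in control AL, 123 to 248 in control CR, 86.2 to 210 for undernourished AL and 135 to 402 for undernourished CR. The globin gene Hba-a1 differed by 0.35 ± 0.40 and 0.61 ± 0.40, and Alas2, the erythroid enzyme of haem synthesis, by 0.31 ± 0.45 in both. Red cell RNA's part in the Tfrc difference was not tested.

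**Figure D1:**
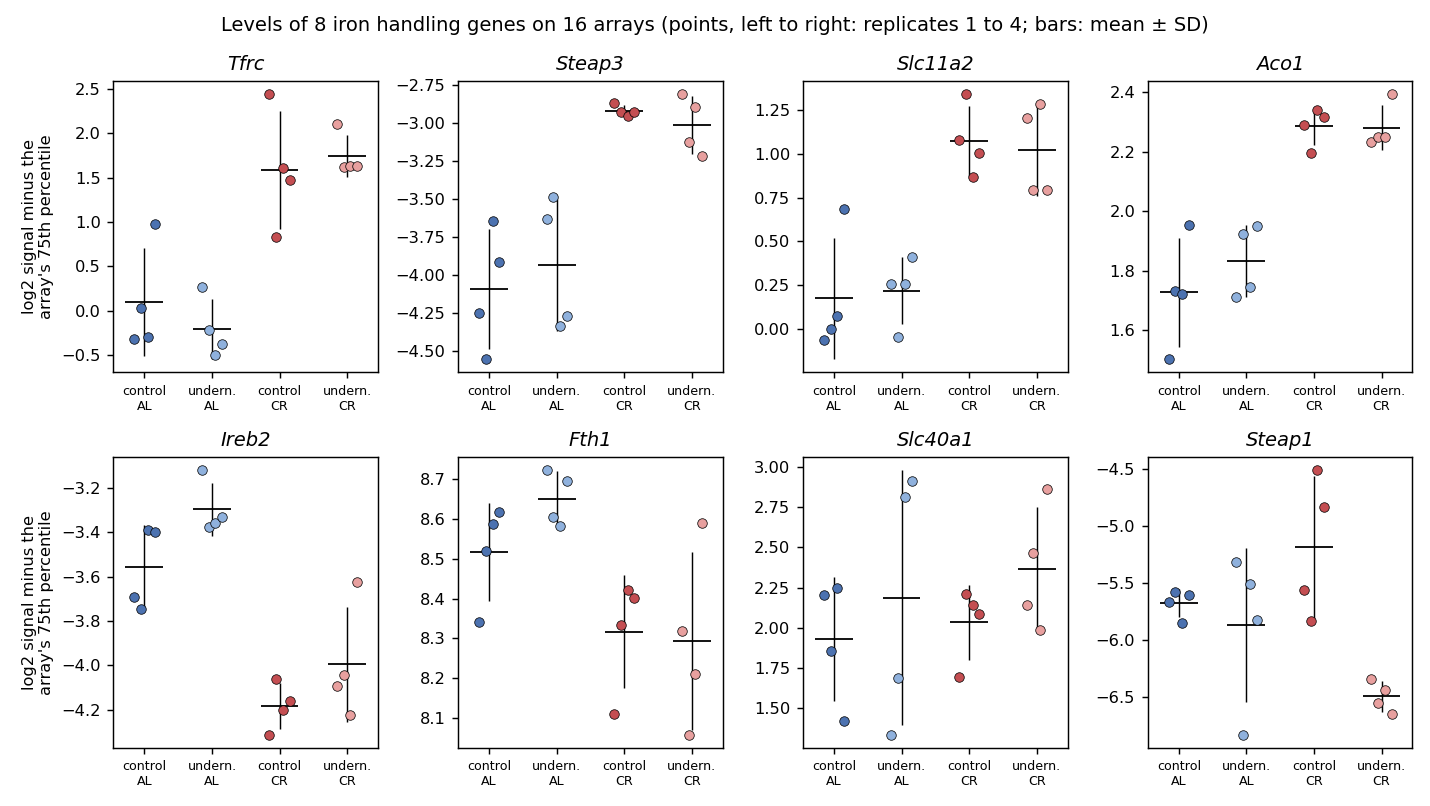
Levels of the 8 genes on each of the 16 arrays (log2 processed signal minus the array's 75th percentile), one panel per gene with its own axis; points are arrays in replicate order, the horizontal bar is the group mean and the vertical bar its SD. Tfrc, Steap3, Slc11a2 and Aco1 sit higher on the CR arrays and Ireb2 lower, while Slc40a1 shows no such step and Steap1 is near background.

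Steap3, the ferrireductase of the transferrin cycle in red cell precursors, was also higher under CR. Its level was -4.25, -4.55, -3.65 and -3.92 in control AL, against -2.87, -2.93, -2.95 and -2.93 in control CR. Offspring of undernourished dams had -3.64, -3.49, -4.34 and -4.28 under AL and -2.81, -3.13, -2.90 and -3.22 under CR. The AL and CR arrays do not overlap in either kind of offspring. The differences were 1.17 ± 0.21 and 0.92 ± 0.21. Steap3 is a dim probe, well above background on all 16 arrays. With normexp background correction, after which an offset of 50 was added to every spot, its differences were 0.25 and 0.09. Such an offset shrinks log2 differences most at dim probes.

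Slc11a2, which encodes the endosomal iron transporter DMT1, showed the same order. Its level was -0.06, 0.00, 0.07 and 0.69 in control AL, against 1.08, 1.34, 0.87 and 1.01 in control CR. The undernourished arrays read 0.26, -0.05, 0.26 and 0.41 under AL and 1.21, 0.80, 1.29 and 0.80 under CR. The groups do not overlap, and control AL replicate 4 was again the highest control AL array. The differences were 0.90 ± 0.18 and 0.80 ± 0.18. A further probe for Slc11a2 differed by 0.55 ± 0.31 in control and -0.01 ± 0.31 in undernourished offspring, so the probes disagree in the latter. In control offspring the difference was 0.39 without the 5 arrays named above and 0.60 with the brain index as a covariate.

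Steap1, another metalloreductase of the STEAP family, was near background. Its probe was well above background on all 4 control CR arrays, on 2 of 4 undernourished CR arrays and on none of the 8 AL arrays. Every CR array had more spots well above background than any AL array (74.3% to 78.5%, against 66.4% to 74.0%). Control CR replicate 2, at -5.83, was well above background, while control AL replicate 2, at -5.58, was not. No difference between offspring diets is therefore read from these counts. Its level was -5.56, -5.83, -4.51 and -4.83 in control CR but -6.34, -6.55, -6.43 and -6.65 in undernourished CR, and these do not overlap. The measured mean of control AL was -5.67, that of undernourished AL -5.87. Control AL arrays read -5.67, -5.58, -5.85 and -5.61, so 2 of the 4 control CR arrays lay within their range or less than 0.1 above it. The measured CR-AL differences were 0.49 ± 0.31 and -0.62 ± 0.31. The first was -0.02 with CR arrays of slide 3 only, 1.0 with those of slide 4 only and -0.22 with normexp background correction, so no direction is read from it. A further probe for Steap1 was well above background on 2 arrays only and was not used.

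Fth1, the ferritin heavy chain, was slightly lower under CR on the percentile scale. Control AL arrays read 8.34, 8.52, 8.59 and 8.62, and control CR arrays 8.11, 8.33, 8.42 and 8.40. The corresponding undernourished values were 8.72, 8.60, 8.58 and 8.69 under AL and 8.32, 8.06, 8.21 and 8.59 under CR. In control offspring 2 CR arrays stood above the lowest AL array, and in undernourished offspring 1 did, so the groups overlap. The differences were -0.20 ± 0.12 and -0.36 ± 0.12, but in the authors' deposited log2 values they were 0.21 and 0.15, where the median of all genes was itself 0.29 and 0.24. Ferritin genes have processed copies elsewhere in the genome, which a probe may also bind.

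Slc40a1, the iron exporter ferroportin, differed more among pools than between diets. Its level was 2.20, 1.86, 2.25 and 1.42 in control AL, against 1.70, 2.21, 2.14 and 2.09 in control CR. Values after maternal undernutrition were 1.34, 1.69, 2.81 and 2.91 under AL and 2.14, 2.47, 1.99 and 2.86 under CR. Undernourished AL replicates 3 and 4, which share a slide, were more than 1 log2 unit above replicates 1 and 2. The differences were 0.10 ± 0.33 and 0.18 ± 0.33, inside the spread of the arrays. Macrophages, which recycle iron and express ferroportin, had 7 of 9 markers lower under CR in control offspring (median -0.96) and 1 of 9 in undernourished offspring (median -0.33), with a summed linear level of 5.70 to 8.55 in control AL, 2.68 to 3.73 in control CR, 3.66 to 8.10 for undernourished AL and 2.97 to 5.05 for undernourished CR. Their part in the level of Slc40a1 was not tested.

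Aco1, which encodes IRP1, the cytosolic aconitase that binds iron-responsive elements when it lacks its iron-sulphur cluster, was higher under CR at its brighter probe. Its level was 1.50, 1.73, 1.72 and 1.95 in control AL, against 2.29, 2.20, 2.34 and 2.32 in control CR. In undernourished offspring it was 1.71, 1.92, 1.74 and 1.95 under AL and 2.23, 2.25, 2.25 and 2.39 under CR. The AL and CR arrays do not overlap. The differences were 0.56 ± 0.11 and 0.45 ± 0.11. In control offspring the difference was 0.33 without the 5 arrays named above and 0.36 with the brain index as a covariate. The same settings gave 0.43 and 0.40 in undernourished offspring. The further probe for Aco1 differed by 0.21 ± 0.26 in control and by -0.55 ± 0.26 in undernourished offspring, the opposite direction, and the mean of both probes gave -0.05 there.

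Ireb2, which encodes IRP2, the iron regulatory protein that is degraded when iron is plentiful, was lower under CR. Its level was -3.69, -3.75, -3.39 and -3.40 in control AL, against -4.31, -4.06, -4.20 and -4.16 in control CR. In undernourished offspring it was -3.12, -3.38, -3.36 and -3.33 under AL and -4.09, -4.04, -4.22 and -3.62 under CR. The AL and CR arrays do not overlap. The differences were -0.63 ± 0.14 and -0.70 ± 0.14, and a further probe gave -0.41 ± 0.17 and -0.56 ± 0.17. Ireb2 thus lay in the opposite direction to Aco1's brighter probe, and the sizes were smaller with quantile normalization (-0.27 and -0.46).

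**Figure D2:**
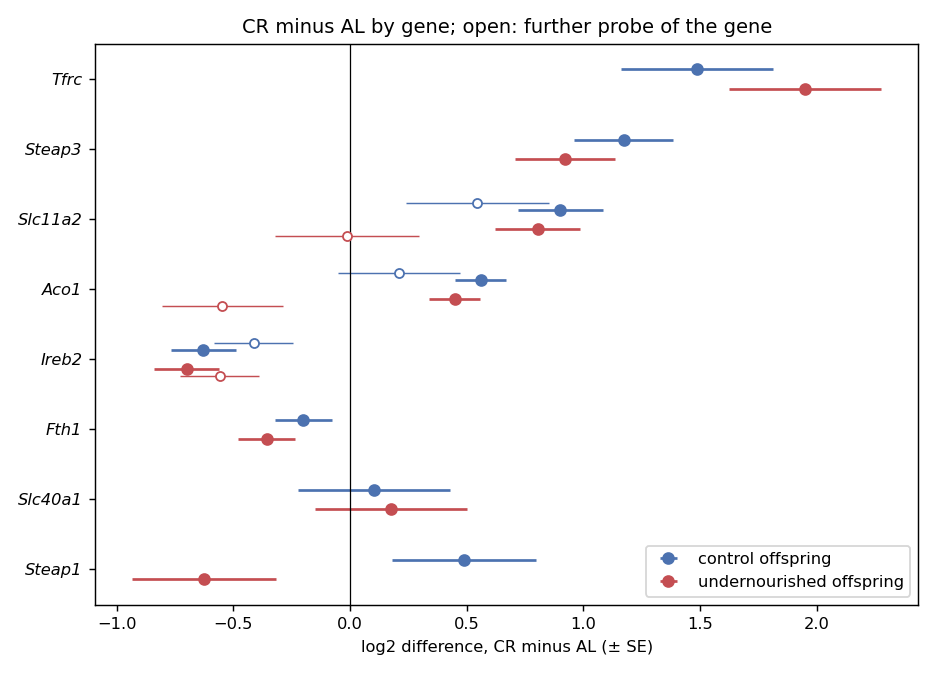
CR minus AL difference (log2, ± SE, n = 4 arrays per group) of each gene in control and undernourished offspring; filled points are the probe used and open points a further probe that passed the filter. Tfrc is farthest to the right in both, and the further probes of Slc11a2 and Aco1 lie at -0.01 and -0.55 in undernourished offspring.

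Of the 8 genes 5 passed an adjusted p of 0.05 in each CR-AL comparison, 4 higher (Tfrc, Steap3, Slc11a2 and Aco1) and 1 lower (Ireb2). Over all genes tested 32.3% passed in control offspring (17.2% higher and 15.1% lower) and 20.3% in undernourished offspring (10.4% and 9.86%). Groups that do not overlap were found for 31.8% and 26.0% of all genes. Since the 8 genes were chosen with these values in view, nothing is read from their count or from their median difference. That median was 0.52 and 0.31, against 0.06 and -0.0035 over all genes, and it includes Steap1, which is near background. Of all called genes in control offspring 53.2% were higher on the percentile scale, 64.1% after quantile normalization, 34.1% with normexp and 81.4% in the authors' log2 values. In undernourished offspring these shares were 51.4%, 63.6%, 22.9% and 87.1%.

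By maternal diet none of the 8 passed in AL offspring, where 0.0322% of all genes did, in CR offspring, where 0 of 24826 did and 715 had an unadjusted p under 0.05, or in the interaction of both diets, where 0.00403% did. Tfrc differed between undernourished and control by -0.30 ± 0.33 in AL and 0.16 ± 0.33 in CR offspring. Within slides, undernourished minus control Tfrc was 0.17 on slide 1, -0.78 on slide 2, 0.23 on slide 3 and 0.09 on slide 4. The interaction for Tfrc was 0.46 ± 0.46, no larger than its error, so the CR-AL difference is not shown to differ between the kinds of offspring. In AL offspring the count of called genes depended on the terms of the fit: with slide as a fixed block it was 1970 in place of 8, and with the replicate number as a block within each offspring diet 1417, or 5.71% of all genes, and 0 of the 8 passed in either. Ireb2 in AL offspring differed by 0.26 ± 0.14 with no overlap. Steap1 in CR offspring differed by -1.31 ± 0.31, but it passed the filter only through CR arrays, 2 of the 4 undernourished CR arrays were not well above background, and the difference was -0.21 with normexp background correction. Groups that do not overlap were found for 5.22% of all genes in AL and 2.73% in CR offspring.

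Over the 16 arrays, with levels that share the CR-AL step, Tfrc was correlated with Aco1 (r = 0.87), Slc11a2 (0.84) and Steap3 (0.83), and negatively with Ireb2 (-0.79) and Fth1 (-0.66). After removing group means these were 0.40, 0.31, 0.29, 0.0012 and -0.0014, while Slc40a1 had -0.65. Among 12702 named genes, those with the most similar levels to Tfrc were Rnf11 (r = 0.97), Xrcc5 (0.97), Rbbp5 (0.96), Selenof (0.96) and Tmem25 (0.96). On deviations from group means they were Rbbp5 (0.90), Rnf11 (0.87), Xrcc5 (0.86), Ibtk (0.85) and Ola1 (0.85). These values describe 16 arrays that share slides.

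Other genes of iron metabolism were taken from 7 lists, of which 90 of 94 genes were measured. These lists were written with earlier results of the arrays known. In control offspring 23 of the 90 rose and 6 fell under CR (median difference 0.26, against 0.06 for all genes). In undernourished offspring 13 rose and 6 fell (median 0.17, against -0.0035). These are 25.6% higher and 6.67% lower in control offspring, where all genes had 17.2% and 15.1%, and 14.4% and 6.67% in undernourished offspring, where all genes had 10.4% and 9.86%. In either direction 32.2% and 21.1% of the 90 passed, close to the 32.3% and 20.3% of all genes. The balance of higher and lower calls over all genes moved with the processing, as given above. The same all-gene shares stand behind each list's count below, which uses the brightest probe of a gene. The same 13 genes passed in both, all in one direction, 11 higher and 2 lower, or 44.8% of the 29 and 68.4% of the 19. The comparisons share no arrays, but they share slides and scan days by diet. The overlap over all genes is not given here, so nothing about iron genes in particular is read from it.

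In the transferrin cycle list 3 of 11 rose and 2 fell in control offspring, and 1 rose in undernourished offspring. Snx3, a sorting nexin that recycles the transferrin receptor, was at 2.50, 2.99, 2.74 and 3.09 in control AL, against 4.20, 3.89, 3.95 and 3.84 in control CR. It rose by 1.14 ± 0.15 (limma, adjusted p = 9.9e-05) in control and by 0.57 ± 0.15 (adjusted p = 0.014) in undernourished offspring. Steap4 rose by 0.61 ± 0.18 in control offspring (adjusted p = 0.016). Tfr2, the second transferrin receptor of liver and red cell precursors, fell by 1.80 and Cybrd1, a duodenal ferrireductase, by 1.47 there (adjusted p = 0.014 and 0.010). A further probe for Cybrd1 gave -0.16 ± 0.26. Tfr2 was at -2.88 and -3.06 on control AL replicates 1 and 2, the arrays with the highest brain index, and at -4.85 and -5.02 on replicates 3 and 4. With the brain index as a covariate its difference was -0.43 (adjusted p = 0.59).

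In the storage list 2 of 6 genes rose and 1 fell in both kinds of offspring. Ftl1, the ferritin light chain, was at 3.17, 3.25, 3.49 and 3.37 in undernourished AL and at 2.32, 2.28, 2.24 and 2.95 in undernourished CR, with no overlap. It fell by 0.63 ± 0.22 in control (limma, adjusted p = 0.038) and by 0.87 ± 0.22 in undernourished offspring (adjusted p = 0.012). Ncoa4, the receptor that takes ferritin to the lysosome, rose by 0.50 ± 0.11 and 0.55 ± 0.11 (adjusted p = 0.0028 and 0.0030), although one further probe for Ncoa4 gave -0.18 ± 0.14 in undernourished offspring. Pcbp2, an iron chaperone, rose by 0.64 ± 0.13 and 0.51 ± 0.13 (adjusted p = 0.0019 and 0.013), and both its further probes were positive.

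In the export and hepcidin list 2 of 8 rose and 1 fell in control offspring and 2 rose in undernourished offspring. Hjv, the bone morphogenetic protein co-receptor hemojuvelin, which muscle expresses strongly, rose by 0.99 ± 0.21 and 0.69 ± 0.21 (limma, adjusted p = 0.0028 and 0.032). Its partner Neo1, neogenin, rose by 0.76 ± 0.11 and 0.51 ± 0.11 (adjusted p = 0.00026 and 0.0065). Heph, a copper ferroxidase, fell by 0.64 ± 0.17 in control offspring (adjusted p = 0.011). Of 6 measured genes that carry iron-responsive elements or control the iron regulatory proteins, 0 passed in either comparison, with 0 and 1 at an unadjusted p under 0.05. The smallest adjusted p values were 0.15 for Fbxl5, which degrades IRP2, in control offspring (difference 0.27 ± 0.13) and 0.13 for Pfn2 in undernourished offspring (0.30 ± 0.13). The probes of Epas1, which encodes the hypoxia-inducible factor HIF-2 alpha, disagreed in control offspring, with 0.27 at the brightest and 1.50 ± 0.23 at a further one. For Pfn2 these were 0.18 and 0.57 ± 0.23.

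In mitochondrial iron and iron-sulphur cluster assembly 7 of 28 rose and 1 fell in control offspring, and 2 rose and 3 fell in undernourished offspring. Cisd2, an iron-sulphur protein of the endoplasmic reticulum and mitochondrial outer membrane, rose by 0.85 ± 0.14 and 0.72 ± 0.14 (limma, adjusted p = 0.00046 and 0.0027) at its brightest probe, while a further probe gave 0.02 ± 0.22 and 0.08 ± 0.22. Slc25a37, the mitochondrial iron importer mitoferrin-1, rose by 0.72 ± 0.16 in control offspring (adjusted p = 0.0032). Iba57, a late cluster assembly factor, fell by 0.77 ± 0.26 and 0.90 ± 0.26 (adjusted p = 0.038 and 0.027). Lyrm4 and Ciao1, further assembly factors, fell by 0.47 and 0.47 in undernourished offspring (adjusted p = 0.015 and 0.023), and a further probe for Ciao1 gave 0.02 ± 0.11 there.

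In the haem list 4 of 19 rose and 1 fell in control offspring, and 3 rose and 1 fell in undernourished offspring. The synthesis enzymes Alas1 and Ppox rose in both. Alas1, the rate-limiting enzyme outside red cells, rose by 0.63 ± 0.15 and 0.51 ± 0.15 (limma, adjusted p = 0.0061 and 0.031). Ppox, which acts late in the pathway, rose by 0.49 ± 0.10 and 0.44 ± 0.10 (adjusted p = 0.0019 and 0.0066). Hmox1, the haem oxygenase that frees iron from haem, was at 0.62, 0.94, 1.28 and 1.06 in undernourished AL and -0.05, 0.17, 0.07 and -0.87 in undernourished CR. It fell by 1.15 ± 0.24 (adjusted p = 0.0050) there and differed by -0.58 ± 0.24 in control offspring (adjusted p = 0.084), and the difference between these was not called (interaction adjusted p = 0.58).

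In the hypoxia-inducible factor list, which is relevant because Tfrc is a known target, 5 of 12 rose and 0 fell in control offspring, and 3 rose and 1 fell in undernourished offspring. Egln1, an oxygen-sensing prolyl hydroxylase, rose by 1.03 ± 0.19 and Vegfa, a growth factor for blood vessels, by 1.11 ± 0.32 in control offspring (limma, adjusted p = 0.0012 and 0.016). The 3 further probes for Vegfa gave 0.58 ± 0.37, 0.32 ± 0.35 and 0.03 ± 0.37 there. In undernourished offspring Vegfa differed by 0.34 and the further probes by -0.30, -0.33 and -0.62. Ankrd37 rose by 1.07 ± 0.22 and Pdk1, a kinase that inhibits pyruvate dehydrogenase, by 0.63 ± 0.12 in undernourished offspring (adjusted p = 0.0046 and 0.0030). In control offspring Pdk1 rose by 0.51 ± 0.12 (adjusted p = 0.0059), and Ankrd37 differed by 0.60 ± 0.22 (adjusted p = 0.052). Ldha, lactate dehydrogenase A, fell by 0.42 ± 0.14 in undernourished offspring (adjusted p = 0.045), where a further probe gave 0.06.

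**Figure D3:**
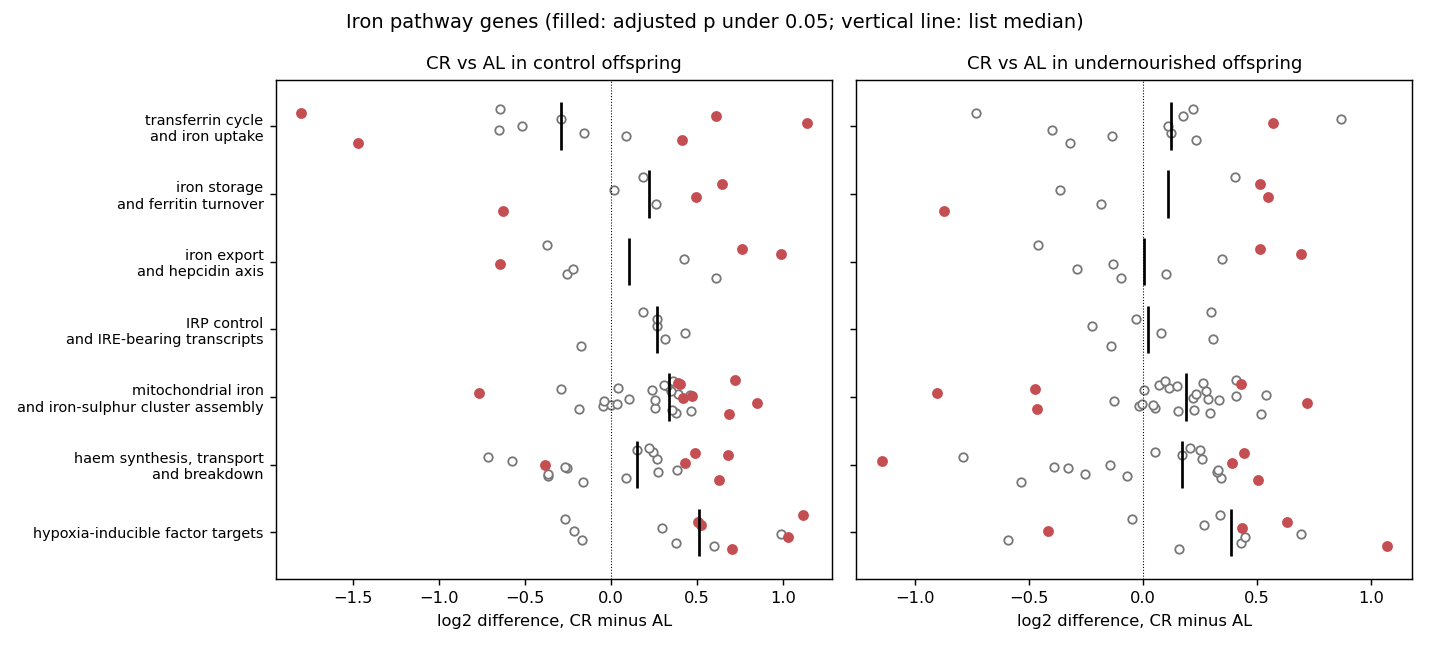
CR minus AL difference (log2) of the 90 measured iron pathway genes by list, in control offspring at left and undernourished offspring at right; filled points passed an adjusted p of 0.05 and the vertical line is the list median. Filled points lie on both sides of 0 in most lists, and the list of iron regulatory protein control has none.

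Other tissues' transcripts and the number of arrays both enter the alternatives for the pathway genes. With the brain index as a covariate 5 of the 90 genes passed in control offspring, while 3169 of all 24826 genes did. The 5 were Snx3, Neo1, Cisd2 and Ppox, which rose, and Hamp2, which fell. Without the 5 arrays 1 control AL array was left, which itself limits the calls, and 0 passed there, with 11 at an unadjusted p under 0.05. Differences were then 0.88 for Snx3, 0.62 for Ppox, -0.82 for Iba57 and -1.93 for Cybrd1, against 1.14, 0.49, -0.77 and -1.47 over all arrays, and 0.23 for Alas1 and -0.26 for Ftl1, against 0.63 and -0.63. In undernourished offspring all 18 named genes that had passed still did with the brain index, and 8 of the 90 passed without the 5 arrays: Snx3, Ncoa4, Neo1, Cisd2, Ppox, Pdk1 and Ankrd37, which rose, and Hmox1, which fell. The all-gene share in undernourished offspring is not given for these settings, so nothing about iron genes in particular is read from these counts. Leaving out control AL replicate 1 alone gave 18 genes in control offspring in place of 29.

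**Figure D4:**
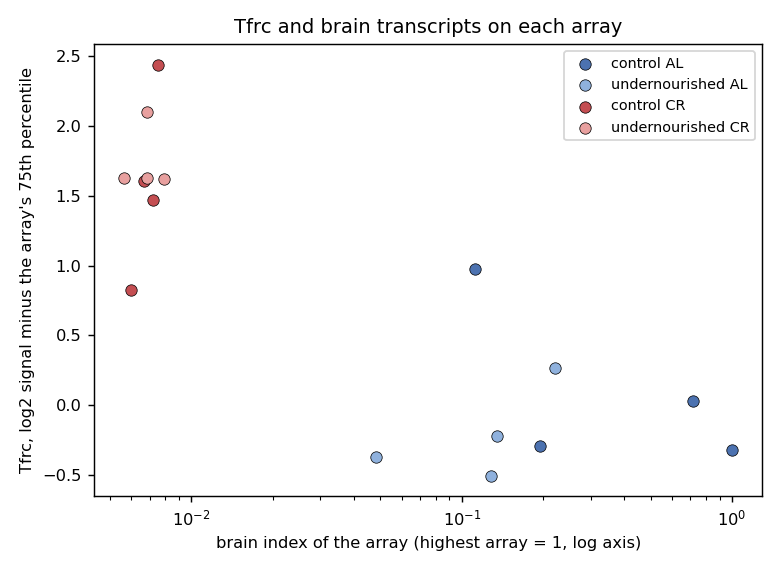
Tfrc level (log2 processed signal minus the array's 75th percentile) against the brain index of each array (log axis, highest array set to 1), coloured by group. The 8 CR arrays lie at the left with Tfrc from 0.83 to 2.44, and the 8 AL arrays lie to the right with Tfrc from -0.50 to 0.98.

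Of the 90 pathway genes, 0 passed for maternal diet in AL offspring (13 at an unadjusted p under 0.05), 0 in CR offspring (0 unadjusted) and 0 in the interaction (3 unadjusted), by limma. Of all 24826 genes, 4795, 715 and 2397 had an unadjusted p under 0.05 in the same order. Nothing about iron genes in particular is read from these counts. In AL offspring Snx3 differed by 0.47 ± 0.15 (adjusted p = 0.16). Without control AL replicate 4, Snx3, Epas1, Alad and Trf passed, 4 of the 90, while 2319 of all 24826 genes did. Trf, transferrin itself, was lower by 0.82 there. With slide as a fixed block, or the replicate number as a block within each offspring diet, 1970 and 1417 of all genes passed. Of the pathway genes Bmp6, the ligand that induces hepcidin, passed in each, higher by 0.72 with an SE of 0.18 in the former.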

How the data were processed

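Per the labels' protocols, 200 ng of total RNA per pool was labelled with Cy3 and hybridised, 1 colour per array, to Agilent mouse arrays. Each array's deposited scanner file was made, per the submitters' processing notes, with Agilent Feature Extraction 10.5.1.1. The deposited intensity is the green processed signal, background-subtracted per the file headers. The deposited files also hold other columns, spot types and flags. The authors deposited log2 values too, whose method the sources used here do not give, and which served as an alternative. Their columns have medians of -0.10 to 0.037 and every probe has a median of 0. Over 120 pairs of arrays their differences had a median slope of 0.49 on those of the scanner values and a correlation of at least 0.72, so direction and centring are known and the scale is not.

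Control and outlier spots were left out and spots of a probe averaged. Log2 intensity minus the array's 75th percentile was fitted with limma 3.58.1 in R 4.3.3, 1 mean per group. That percentile was 387 to 589 on AL arrays and 540 to 829 on CR arrays. Of the spots, 66.4% to 74.0% were well above background on AL arrays and 74.3% to 78.5% on CR arrays, which limits precision. Counts of arrays well above background are therefore not like for like between offspring diets. A probe had to be well above background on 4 or more arrays, and the brightest stood for its gene. P-values were two-sided and Benjamini-Hochberg adjusted over 24826 genes. The members and gene lists were chosen with earlier results of these data known. Named pathway genes are, per list and comparison, at most 4 called genes with the largest change, or at most 2 with the smallest p where none passed. Genes named behind small counts under alternatives were chosen after their values were seen. The script was tested on simulated data. Same-numbered control and undernourished AL arrays, which also share a slide, deviated together (correlations 0.11 to 0.44 over 4 pairs). In only 2 of the 4 pairs was the same-numbered array the closest one, so a pairing by number is not established apart from the shared slide. The labels give no pairing. A block within each offspring diet was added as an alternative after seeing these correlations. In no other pair of groups were all 4 correlations over 0.1.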

Additional observations from a re-analysis of the deposited data

Results flagged for a closer look

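Among the 8 genes in 4 groups, 32 combinations were checked for an array far from the other 3 of its group, and 2 stood apart. Tfrc in undernourished CR replicate 1 was at 2.10, while the other arrays of that group lay between 1.62 and 1.63. Aco1 in undernourished CR replicate 4 was at 2.39, while the others lay between 2.23 and 2.25. The check marks some groups by chance alone, and both arrays keep their place on the far side of the AL arrays. Without replicate 1 the Tfrc difference in undernourished offspring was 1.83.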

How the results depend on the processing

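Tfrc stayed higher under CR in every setting run, from 0.61 to 1.80 in control offspring, and over arrays left out in turn from 1.20 to 1.78 in control and 1.83 to 2.11 in undernourished offspring. Without the 5 arrays with skin or liver transcripts, Tfrc differed by 0.61 in control offspring, by -1.08 for maternal diet in AL offspring and by 1.28 in the interaction. Aco1 in undernourished offspring changed sign, to -0.049, with the mean of both probes. Called pathway genes, 29 in control and 19 in undernourished offspring, numbered 50 and 41 with normexp, 64 and 61 in the authors' log2 values, 0 and 8 without the 5 arrays, which leaves 1 control AL array, 19 and 3 with CR arrays of slide 3 only, and 10 and 7 with those of slide 4 only, where fewer arrays were fitted. They numbered 5 in control offspring with the brain index. Normexp used the median spot and background signals with an offset of 50, and a background marked as an outlier was set to the array's median.

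All called genes, 8007 and 5038, numbered 12073 and 13103 with normexp, 13991 and 11850 in the authors' values, 12342 and 10075 without a filter, 5259 and 1925 with slide 3 only, and 3552 and 1592 with slide 4 only. In control offspring they numbered 3169 with the brain index and 909 without the 5 arrays. For maternal diet in AL offspring, 8 genes became 16 with quantile normalization, 0 with normexp and in the authors' values, 2 with probes bright on all arrays, 13 with slide as a random block, 1970 with slide as a fixed block, 1417 with the replicate block within each offspring diet (chosen after seeing the data), 5 with the brain index and 1 without the 5 arrays; pathway genes became 1 with each of these blocks. In the interaction, 1 gene became 0 with normexp, the authors' values, probes bright on all arrays, the replicate block and the brain index, and 12 with slide as a fixed block. Leaving out each array in turn gave 18 to 40 pathway genes in control, 13 to 20 in undernourished and 0 to 4 in AL offspring by maternal diet. For all genes it gave 2 to 2319 by maternal diet in AL offspring and 0 to 91 in the interaction, both highest without control AL replicate 4. The cause was not tested.

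Over 24 pairs of arrays with one replicate number, deviations from group means correlated from -0.14 to 0.44, and 6 exceeded 0.1. With the replicate block 30 and 21 pathway genes passed in control and undernourished offspring, and Tfrc kept its differences with an SE of 0.31. For maternal diet in AL offspring, where same-numbered arrays deviated together, the block within each offspring diet moved the counts given above, and it changed no call of the 8 genes.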
